A study of Mus musculus with 12 samples.

Results

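The strongest CTCF sites of mouse liver are the places on the genome where the CTCF peak stood among the best-scored peaks of every library, both after starvation and in the fed state. They were chosen by the authors' peak scores. Overlapping peaks of the 6 lists, with 1 shared bp as the minimum, were joined into 76061 sites. Scores were turned into percentile ranks within each list (100 is the best), and a site was kept when it had a peak in all 6 lists and a rank of 90 or more in each. This left 1152 of 76061 sites, or 1152 of the 22131 sites called in all 6 lists. The other 20979 sites called in all 6 lists are the nearest set to compare with, since the rule sets them apart by rank alone.

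Livers came from wild-type male C57BL6/Ncrl mice aged 3 to 4 months on normal chow. The starved mice had gone 24 h without food and their livers were taken at ZT13 (zeitgeber time, the hour of the light cycle), whereas the fed mice ate freely and their livers were taken at ZT16. Starvation and collection time therefore cannot be told apart. Chromatin of whole livers was immunoprecipitated with a Diagenode antibody in 3 starved and 3 fed libraries, and each has its own peak list. Whether each library stands for its own mouse is not in the labels, so p-values here reflect the spread among libraries alone and that spread may be technical. Whole liver holds several cell types, and a peak list has no marker expression by which the tissue could be checked.

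The starved lists held 30752, 23926 and 29866 peaks and the fed lists 56103, 49030 and 74950. The number of reads behind them is unknown. A rank of 90 in a starved list therefore covers fewer peaks than in a fed list. It corresponded to a score of 102, 64.2 and 93.0 in starved 1, 2 and 3, and of 171, 177 and 226 in fed 1, 2 and 3. Of the sites at rank 90 or more, the strongest sites made up 37.6, 48.6 and 38.8% in the starved lists, against 20.6, 23.6 and 15.4% in the fed lists.

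CTCF is a DNA-binding protein with a row of zinc fingers that reads a long, non-palindromic motif. Bound CTCF halts the ring-shaped cohesin complex as it extrudes chromatin loops, so that strongly bound sites often anchor loops and mark the borders of domains. The motif has a direction, and anchors of a loop usually carry motifs that point towards each other. Near gene starts, CTCF is also known as a regulator of promoter activity and of contacts with enhancers.

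Sequence could be read at the promoters among these sites. RefSeq promoter windows (build GRCm38.p6, the same as mm10) run from 250 bases before to 50 after an annotated gene start, and 32851 windows of 27025 genes were used. Of the 1118 strongest sites on the chromosomes with windows, 271 overlapped at least 1 window, 338 windows of 311 genes in all. Windows were searched on both strands for a 12-base CTCF core with 8 fixed bases, which reads CCA, any 2 bases, AG, any 2 bases, GGC. Windows are shown for the 5 best-ranked strongest sites with a core match and the site's centre inside the window. They are shown because they give the sequence around the core at high-ranked promoter peaks. They are not the best-ranked promoter sites as a whole. Mean ranks were 99.68 at Adprhl2 and 99.45 at Nsfl1c, the best 2 of the 5. Sites without a match reached 99.74 at Wdr38, 99.64 at Rai1 and 99.55 at both Man2b2 and Trrap. The centre is the mean midpoint of the best peak in each of the 6 lists. Each of the 5 windows is printed 5′ to 3′ on the strand of its gene, with the match in capitals.
Adprhl2, chr4:126321654-126321953, minus strand: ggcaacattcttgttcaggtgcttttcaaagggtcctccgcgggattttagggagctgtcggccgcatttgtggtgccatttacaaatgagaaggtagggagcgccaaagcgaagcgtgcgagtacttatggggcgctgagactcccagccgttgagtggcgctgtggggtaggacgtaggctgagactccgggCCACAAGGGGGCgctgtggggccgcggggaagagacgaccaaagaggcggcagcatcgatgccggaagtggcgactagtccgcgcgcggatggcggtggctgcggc
Nsfl1c, chr2:151493932-151494231, plus strand: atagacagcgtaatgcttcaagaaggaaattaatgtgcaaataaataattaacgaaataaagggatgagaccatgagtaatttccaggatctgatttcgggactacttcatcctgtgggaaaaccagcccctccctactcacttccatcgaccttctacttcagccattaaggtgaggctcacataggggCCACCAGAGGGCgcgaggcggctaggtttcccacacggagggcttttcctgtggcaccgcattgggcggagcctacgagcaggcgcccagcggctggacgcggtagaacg
Rapgef1, chr2:29619470-29619769, plus strand: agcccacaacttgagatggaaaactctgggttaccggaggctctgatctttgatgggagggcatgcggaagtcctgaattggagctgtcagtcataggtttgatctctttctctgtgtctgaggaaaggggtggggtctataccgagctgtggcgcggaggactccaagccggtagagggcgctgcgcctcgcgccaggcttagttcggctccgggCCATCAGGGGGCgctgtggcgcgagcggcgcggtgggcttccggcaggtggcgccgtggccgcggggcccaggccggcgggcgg
Agfg1, chr1:82839210-82839509, plus strand: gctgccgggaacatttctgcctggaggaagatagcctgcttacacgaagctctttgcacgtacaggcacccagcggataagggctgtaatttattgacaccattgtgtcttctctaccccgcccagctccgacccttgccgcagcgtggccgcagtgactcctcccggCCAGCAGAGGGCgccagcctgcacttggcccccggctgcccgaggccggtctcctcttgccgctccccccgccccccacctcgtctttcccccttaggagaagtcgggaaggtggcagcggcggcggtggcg
Vps37d, chr5:135078217-135078516, minus strand: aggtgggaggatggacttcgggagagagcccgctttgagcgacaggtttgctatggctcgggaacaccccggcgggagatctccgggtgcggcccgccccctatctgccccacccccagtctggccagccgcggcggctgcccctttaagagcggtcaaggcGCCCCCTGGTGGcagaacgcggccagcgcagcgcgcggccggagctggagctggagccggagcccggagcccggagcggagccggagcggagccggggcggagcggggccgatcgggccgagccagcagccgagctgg
In the first 4 windows the core reads in the direction of the gene, and in Vps37d it lies on the opposite strand, so that its capitals are the reverse complement of the core. Counted from the annotated start, with upstream negative, the match was centred at −50.5 bp in Adprhl2, −54.5 bp in Nsfl1c, −28.5 bp in Rapgef1, −76.5 bp in Agfg1 and −82.5 bp in Vps37d.

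Adprhl2 encodes an enzyme that removes ADP-ribose from proteins. Its site (chromosome 4, 126321091 to 126322679) ranked 99.9, 99.99 and 99.99 in starved 1, 2 and 3 and 99.7, 99.2 and 99.3 in fed 1, 2 and 3. It also overlapped Tekt2, a gene for a filament protein of cilia and sperm tails. Nsfl1c encodes a cofactor of the VCP ATPase. The scores of its site (chromosome 2, 151493737 to 151494798) were 223, 142 and 198 in the starved lists and 239, 270 and 313 in the fed lists. Rapgef1 encodes an exchange factor that activates the small GTPase Rap1. Starved 2 gave the site of Rapgef1 its best score of all, 207, a rank of 100, and the site's lowest rank was 98.0 in fed 3. The sites of Agfg1 and Vps37d, a subunit of the ESCRT-I sorting complex, had mean ranks of 99.07 and 98.999. At all 5 sites the peaks were at ranks above 97 in every list.

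The core was present in 49 of the 338 windows that overlapped a strongest site (14.5%, exact 95% interval 10.9 to 18.7). It was present in 9.57% of the 2256 windows at other sites called in all 6 lists, in 3.70% of the 3240 windows at fed sites missing from at least 1 starved list and in 1.44% of the 23986 windows with no site. Over all 32851 windows the share was 2.43%. The order against the other sites in all 6 lists depended on how the strongest sites were chosen. It was 8.55%, against 11.2%, with lists of equal length (405 sites) and 9.52%, against 13.5%, with a score limit (348 sites), where the intervals overlap. With a rank limit of 80 it was 13.9%, against 8.83%, and with a rank limit of 95 it was 10.5%, against 10.2%. Limited to windows that hold the centre of the site, 41 of 199 windows of the strongest sites had a match (20.6%, 15.2 to 26.9), against 17.8% of 895 windows of other sites in all 6 lists. With 1 of the 8 fixed bases allowed to differ, it was 150 of 199 (75.4%), against 67.5% of 895 and 30.6% of all windows. For a looser core with 7 fixed bases, in which the A of CCA is open as well and which every match to the first core also meets, it was 113 of 199 (56.8%), against 42.0% of 895 and 8.61% of all windows. These shares are descriptions, since windows of neighbouring starts overlap. Shares limited to windows that hold the centre were not computed again with the strongest sites chosen otherwise. The same holds for the strand and letter shares further on. The median GC content was 63.0% in windows of the strongest sites, 61.3% at other sites in all 6 lists and 49.7% where no site lay; its part in the shares was not tested.

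The matches at the strongest sites fell on 45 distinct places in 43 sites. All 45 lay inside the site, and 21 were within 50 bp of its centre (median 52.1 bp). At other sites in all 6 lists, 193 of 195 matches lay inside and 97 were within 50 bp (median 49.2 bp). This place in the site is therefore not particular to the strongest. For the 45 matches, the median distance to the midpoint of the library's own peak was 64, 40 and 46.5 bp in starved 1, 2 and 3. It was 57.5, 70 and 96 bp in fed 1, 2 and 3. Of the 45 matches, 35 (77.8%) read in the direction of the gene and 10 in the other. At other sites in all 6 lists it was 120 of 195 (61.5%) and in windows with no site 164 of 333 (49.2%). For 3 of the 45 matches, windows of genes on both strands hold the match, so that the direction depends on the gene chosen. All 45 matches were centred upstream of the start (172 of 195 at other sites in all 6 lists), 33 of them within 100 bp, with a median position of −72.5 bp. The windows reach only 50 bases past the start, and matches farther inside genes were not looked for.

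**Figure D1:**
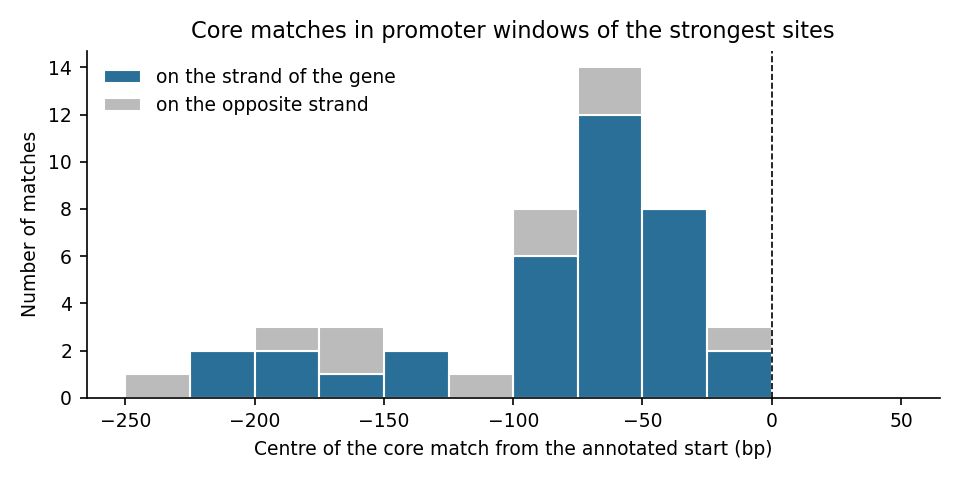
Position of the 45 distinct core matches in promoter windows of the strongest sites, in bp from the annotated gene start (dashed line, negative is upstream), in bins of 25 bp, with matches on the strand of the gene in blue (35) and on the opposite strand in grey (10). The tallest bins lie in the 100 bp before the start, which holds 33 matches.

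The open letters of the core were not used evenly at these sites, nor at the other sites in all 6 lists, where the shares differed. The first open base was C in 21 and G in 19 of the 45 matches, and the second was C in 28. The third was G in 27 and A in 17, and the last was G in 33. These are 46.7 and 42.2%, 62.2%, 60 and 37.8%, and 73.3%. In the 195 matches at other sites in all 6 lists the same letters stood at 43.6 and 48.7%, 47.7%, 53.3 and 37.9%, and 50.8%. In the 333 matches of windows with no site they stood at 14.7 and 56.2%, 28.2%, 21.6 and 36.3%, and 35.4%. The commonest strings were CCACCAGGGGGC (11 matches), CCAGCAGAGGGC (7) and CCAGCAGGGGGC (5). The base after the core was G in 35 and A in 8 of the 45. Further matches are shown with 9 bases on either side, read in the direction of the core, because they show how alike the sequences under these peaks are outside the letters searched for.
Lsm11, chr11:45945027-45945038: cagccgcggCCACCAGGGGGCagcatagat
Vps18, chr2:119288663-119288674: cctgagcctCCACAAGGAGGCgttgtcgga
Atp6v1d, chr12:78861814-78861825: tttagtcaaCCAAGAGAGGGCgctgtgacg
Ext2, chr2:93822593-93822604: tcctcctgtCCAGCAGGGGGCgcggcgcta
Csk, chr9:57645697-57645708: ctccaaggtCCAGCAGAGGGCgccgaccca
Ndufaf4, chr4:24898027-24898038: tcctcccggCCACCAGGGGGCgacgagcgc
Kif1b, chr4:149307913-149307924: gctcccgtaCCACCAGGGGGCgctcgagtg
Rint1, chr5:23787627-23787638: gacatccaaCCAGCAGGGGGCgccacagaa
Rplp0, chr5:115559290-115559301: ggctccgacCCAGCAGAGGGCagcaggtct
Scap, chr9:110333253-110333264: ggcaggggaCCACCAGGGGGCgaacccgag
The coordinates are those of the 12 capitals. Rplp0 encodes a protein of the large ribosomal subunit, and Scap the escort protein that carries transcription factors of sterol synthesis to the Golgi. Csk encodes the kinase that holds Src kinases inactive, and Atp6v1d a subunit of the proton pump of lysosomes.

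Some of the best-ranked promoter sites had no match to the core. The best of them lay at Wdr38, a gene for a WD-repeat protein (chromosome 2, 38997732 to 38998464), at ranks of 99.9, 99.7 and 99.5 in the starved lists and 99.98, 99.7 and 99.8 in the fed lists. With 1 fixed base allowed to differ there was 1 match in its window, on the strand opposite to the gene, in capitals here.
Wdr38, chr2:38998059-38998358, plus strand: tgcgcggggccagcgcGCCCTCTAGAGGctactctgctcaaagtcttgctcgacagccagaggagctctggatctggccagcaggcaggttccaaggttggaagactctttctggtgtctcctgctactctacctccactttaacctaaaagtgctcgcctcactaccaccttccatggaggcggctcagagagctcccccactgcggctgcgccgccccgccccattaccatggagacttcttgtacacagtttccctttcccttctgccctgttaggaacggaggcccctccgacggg
The next lay at Rai1, a gene for a chromatin-associated nuclear protein (chromosome 11, 60104405 to 60105758). Its ranks were 99.1, 99.6 and 99.9 in the starved lists and 99.7, 99.7 and 99.9 in the fed lists. Its window held 0 matches even with 1 fixed base allowed to differ, which says only that these letters are not in these 300 bases.
Rai1, chr11:60104763-60105062, plus strand: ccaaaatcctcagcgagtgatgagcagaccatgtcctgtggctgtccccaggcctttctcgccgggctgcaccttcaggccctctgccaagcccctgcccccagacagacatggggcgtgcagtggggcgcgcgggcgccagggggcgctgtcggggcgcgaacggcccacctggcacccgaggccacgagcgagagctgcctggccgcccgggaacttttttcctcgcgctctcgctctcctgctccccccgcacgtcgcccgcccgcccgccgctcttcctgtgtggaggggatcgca
At both Wdr38 and Rai1 the centre lay inside the window, but the site reached beyond it, so that a missing match is no statement about binding.

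The strongest sites lay close to the ends of genes. Their midpoints were a median of 2435 bp from the nearest annotated gene end, against 5878 bp for other sites called in all 6 lists. Of the 1152, 420 (36.5%, exact 95% interval 33.7 to 39.3) had their midpoint within 1 kb of a gene end, against 18.5% (18.01 to 19.1) of the other sites in all 6 lists and 23.5% of all 76061 sites. Within 200 bp it was 18.4%, against 6.17%. Windows were not at hand for chromosome 18, where the other 34 strongest sites lie. Elsewhere, promoter windows were overlapped by 271 of 1118 (24.2%), against 8.94% of 20373, and held the centre of 15.6%, against 4.02%. Windows of genes on both strands were overlapped by 39 (3.49%), against 0.97%. Inside genes the share was 56.5%, against 58.8%, and far from genes, more than 50 kb from any, it was 4 sites (0.35%), against 2.21%. The gene table gives no exons, so that exonic and intronic sites were not told apart. Intervals cover counting error only, and sites of 1 gene are not independent.

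The share near gene ends was not graded evenly over ranks. Among sites called in all 6 lists it was 19.6% at mean ranks under 50, 15.1% between 60 and 70, 20.05% between 80 and 90, 25.7% between 90 and 95, and 37.3% above 95. The looser core was in 27.7% of the windows holding the centre of a site at mean ranks under 50 and in 44.1, 46.9, 56.0 and 57.1% in the bins from 70, 80, 90 and 95. The stricter core was in 7.10% under 50, 26.5% between 90 and 95 and 19.5% above 95. Of the 1171 sites above a mean rank of 95, 970 belonged to the strongest sites. Those that missed the limit had a rank under 90 in at least 1 list.

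**Figure D2:**
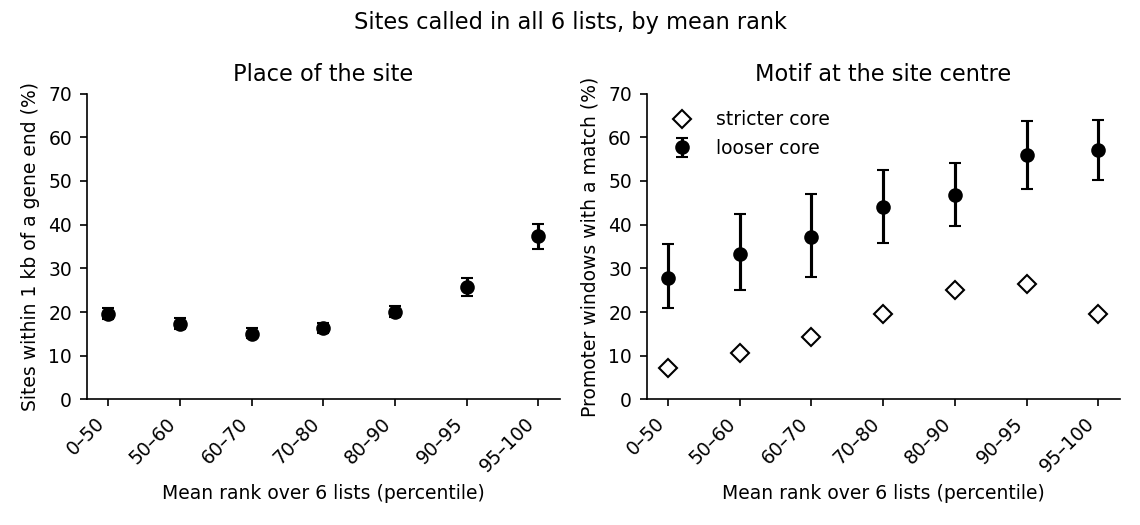
Left, the share (%) of sites called in all 6 lists whose midpoint lies within 1 kb of an annotated gene end, by mean rank (percentile), with exact 95% intervals; right, the share (%) of promoter windows holding the centre of such a site that match the looser core (filled, with intervals) or the stricter core (open). The share near gene ends is lowest between ranks 60 and 70 (15.1%) and reaches 37.3% above 95, while the looser core goes from 27.7 to 57.1%.

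The 15 best sites by mean rank had values between 99.6 and 99.9. The best lay inside Gm40715, a noncoding RNA gene (chromosome 10, 79924899 to 79925879), at 99.96, 99.98 and 99.8 in the starved lists and 99.9, 99.96 and 99.7 in the fed lists. The next lay over an end of Dnajc11, a gene for a mitochondrial protein of the DnaJ family (chromosome 4, 151932885 to 151934182), at scores of 254, 152 and 203 in the starved lists and 254, 339 and 346 in the fed lists. Neither site was under rank 99 in any library. Sites inside genes followed at Twf2, an actin-binding twinfilin (chromosome 9, 106211547 to 106212830), Atxn7, a subunit of the SAGA complex (chromosome 14, 14098201 to 14099389), and H2-DMa, which helps load peptides onto class II molecules (chromosome 17, 34134707 to 34135884). Also inside genes were those of Pik3r2, a regulatory subunit of PI3 kinase (chromosome 8, 70768567 to 70770356), Acbd4 (chromosome 11, 103102274 to 103103418), Ocel1 (chromosome 8, 71371192 to 71372201) and the noncoding 4930509E16Rik (chromosome 9, 72529729 to 72531109). The sites of Wdr38, Adprhl2 and Rai1 belong to the same 15.

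Only 3 of the 15 lay outside genes. Their nearest genes were Rbm19, a ribosome biogenesis factor, at 12808 bp (chromosome 5, 120102270 to 120103705), Epm2aip1 at 10567 bp (chromosome 9, 111289660 to 111290622) and the pseudogene Gm13983 at 2342 bp (chromosome 2, 118486588 to 118488254). The site near Epm2aip1 ranked 99.997, 99.97 and 99.7 in the starved lists and 99.4, 99.7 and 99.9 in the fed lists. These values chose the members and are given as a description. At the limit itself, the lowest rank was 90.004 for sites at Notch3 and Otop2 and 90.01 for one near Cyp4x1, all in a fed list. It was 89.998 for sites at Ints1, Sdk1 and Gm11775 just outside, all in starved 2.

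How much each library limited the choice was described by leaving each one out in turn. The sites that pass in all 6 are always the 1152, so that these shares restate the counts of the rule. No p-value is given for these shares. Sites with a rank of 90 or more in the other 5 libraries reached 90 in the library left out for 85.7% of 1344 sites in starved 1, 72.6% of 1586 in starved 2 and 88.0% of 1309 in starved 3. In fed 1, 2 and 3 it was 92.9% of 1240, 94.9% of 1214 and 97.3% of 1184. None of these sites lacked a peak in the library left out, and the lowest rank was 44.7 in starved 2 and 86.8 in fed 3. A rank of 90 holds for 10% of the peaks of any list, but this is no baseline for these shares. The sites looked up had already been chosen by their ranks in the other 5 libraries. The share was 82.1 ± 8.29% in starved and 95.03 ± 2.20% in fed libraries (SD, n = 3 each), or −12.9 points for starved minus fed.

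The direction of that difference depended on list length. When every list was limited to its 23926 best-scored peaks, the length of the shortest, the shares were 86.5, 84.0 and 88.0% in starved 1, 2 and 3 and 73.4, 83.3 and 68.2% in fed 1, 2 and 3. The means were 86.2 ± 2.03% in starved and 74.96 ± 7.70% in fed libraries (SD, n = 3 each), a difference of 11.2 points the other way. No direction can therefore be given. Fed 3, the longest list, had the highest share at full length and the lowest at equal length.

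**Figure D3:**
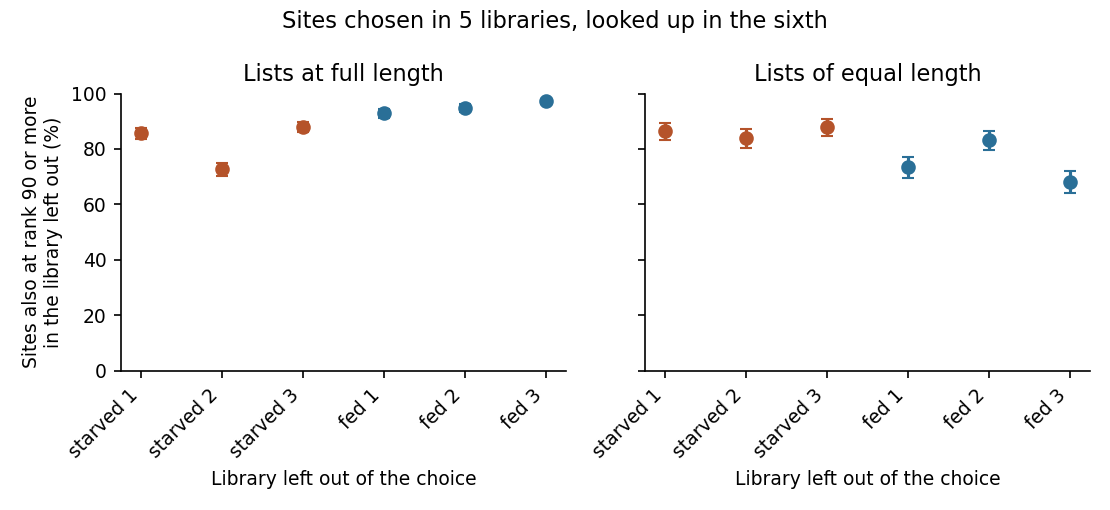
Share (%) of sites with a rank of 90 or more in 5 libraries that also reach 90 in the library left out, with exact 95% intervals, for starved (orange) and fed (blue) libraries. With full lists (left) the starved libraries lie at 72.6 to 88.0% and the fed at 92.9 to 97.3%; with lists of equal length (right) the starved lie at 84.0 to 88.0% and the fed at 68.2 to 83.3%.

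The same counts can be set against the choice in each state, again as a description. Of the 1359 sites at rank 90 or more in all 3 starved lists, 1152 (84.8%) were so in all 3 fed lists, and 1254 to 1310 were so in each fed list. Of the 3235 sites chosen in the 3 fed lists, the same 1152 were 35.6%, with median ranks of 92.8, 90.3 and 92.6 in starved 1, 2 and 3. Every one of these 3235 sites had a peak in each starved list. With lists of equal length, 1124 sites were chosen in the starved and 743 in the fed lists, and the 405 sites common to both were 36.0% of the starved and 54.5% of the fed choice. The order of the strongest sites among themselves was weakly shared. Spearman's rho of ranks over the 1152 sites was 0.38 to 0.47 between starved libraries, 0.20 to 0.36 between starved and fed, and 0.15 to 0.23 between fed libraries. Over the 22131 sites in all 6 lists it lay between 0.81 and 0.87. The range of ranks among the strongest sites is limited by the rule, and sites of 1 library share its depth.

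Peak width was not used to choose the sites. At the strongest sites the median width was 624, 369 and 520 bp in starved 1, 2 and 3 and 856, 790 and 1020 bp in fed 1, 2 and 3. All 3 starved values lay below all 3 fed values. The means were 504 ± 128 bp in starved and 889 ± 118 bp in fed libraries (SD, n = 3 each). The difference was −384.5 bp and the ratio 0.567. The two-sided exact permutation p was 0.1, the smallest value for groups of 3, and 0.133 after Benjamini-Hochberg adjustment over the 4 comparisons computed. These 4 include the share in the library left out, which the rule constrains and for which no p-value is given. Of the 1152 sites, 1152 had a lower mean width in starved than in fed libraries, with a median log2 ratio of −0.78, as did 20977 of the 20979 other sites in all 6 lists, with a median of −1.01. At 924 (80.2%) each starved width was below each fed width. This held for 87.6% of all 22131 sites called in all 6 lists and so is not particular to the strongest. The opposite order was found at 0 of the 1152 and at 0% of all sites in all 6 lists.

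**Figure D4:**
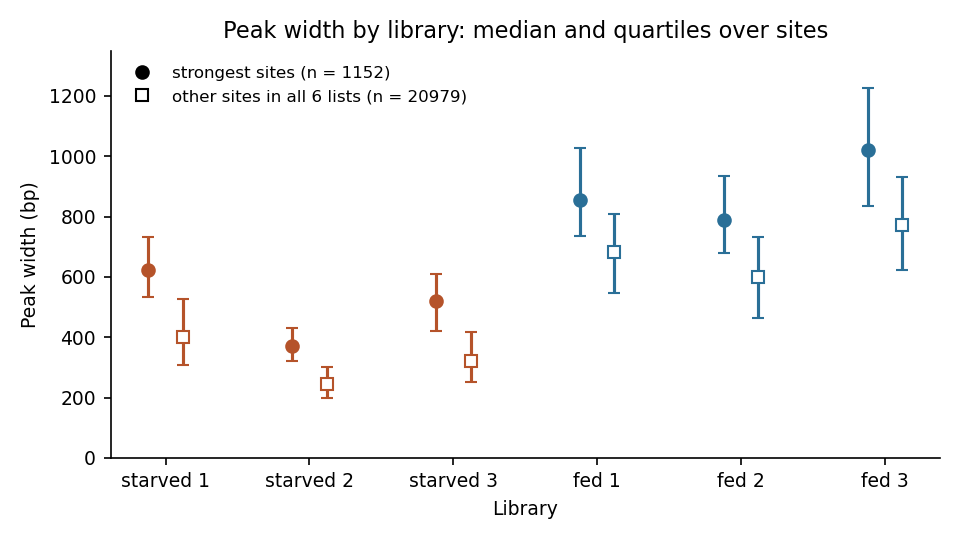
Median peak width (bp) with quartiles over the 1152 strongest sites (filled circles) and the 20979 other sites called in all 6 lists (open squares), for 3 starved (orange) and 3 fed (blue) libraries. The strongest sites are at 369 to 624 bp in starved and 790 to 1020 bp in fed libraries, above the other sites of the same library each time.

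Within each library, peaks at the strongest sites were broader than at the other sites in all 6 lists, by 1.56, 1.50 and 1.62 times in the starved and 1.26, 1.32 and 1.32 times in the fed lists. Against the median of all peaks of the same list the ratio was 1.77, 1.49 and 1.79 in starved and 2.22, 2.11 and 2.90 in fed lists, a difference of −0.51 on the log2 scale (exact permutation p = 0.1, adjusted 0.133). With lists of equal length, and the strongest sites chosen again, the ratios were 1.62, 1.56 and 1.69 in starved and 1.33, 1.39 and 1.39 in fed lists, a difference of 0.25 the other way. Width and score come from the same reads, and the depth behind them is unknown. A library had 1.08, 1.08 and 1.09 peaks per strongest site in the starved and 1.08, 1.08 and 1.03 in the fed lists (exact permutation p = 0.5).

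Single sites differed in whether their widths overlapped between the states. At Adprhl2 they were 638, 416 and 364 bp in the starved and 916, 871 and 1589 bp in the fed lists, without overlap. At Dgat2, which makes triglycerides, they were 888, 552 and 735 bp in the starved and 1437, 1125 and 1735 bp in the fed lists, also without overlap. At Irs1, the insulin receptor substrate, they were 541, 348 and 473 bp in the starved and 451, 491 and 1453 bp in the fed lists, which overlap. At Scap they were 699, 338 and 348 bp in the starved and 481, 644 and 1518 bp in the fed lists, which overlap as well. The strongest sites at promoter windows (271) and those elsewhere (847) had median log2 width ratios of −0.82 and −0.77.

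Ranks of starved against fed lists are constrained by the rule. All 3 starved ranks lay below all 3 fed ranks at 103 of the 1152 sites and above them at 50, against 66.8% and 0.334% of the sites in all 6 lists, and nothing can be read from this. The lowest of a site's 6 ranks was in starved 2 for 245 sites and in fed 2 for 160, with the other 4 libraries between. The midpoints of the 6 best peaks of a site spanned a median of 130 bp, against 107 bp at other sites in all 6 lists, where peaks were narrower.

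The strongest sites were spread over all autosomes and nearly missing from the X chromosome. They were 1148 of 21671 sites called in all 6 lists on autosomes (5.30%), from 3.24% on chromosome 16 to 6.67% on chromosome 17. On the X chromosome, of which these male mice carry a single copy, they were 4 of 450 (0.89%, exact 95% interval 0.24 to 2.26). The median rank of X-linked sites in all 6 lists was 48.0, 33.0 and 46.3 in the starved and 68.9, 65.4 and 77.0 in the fed lists. The median of the mean rank was 55.6 there and 68.1 to 73.0 on single autosomes. The part of copy number in this was not tested. Of the 4, 1 overlapped Stag2, a cohesin subunit (42148797 to 42149525), at 90.2, 97.2 and 95.3 in the starved and 96.7, 96.4 and 94.7 in the fed lists. The best lay between genes (94865289 to 94866101), at a mean rank of 99.2, nearest to the pseudogene Zxda. Of the 10 sites in all 6 lists on the Y chromosome, 0 belonged to the strongest.

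**Figure D5:**
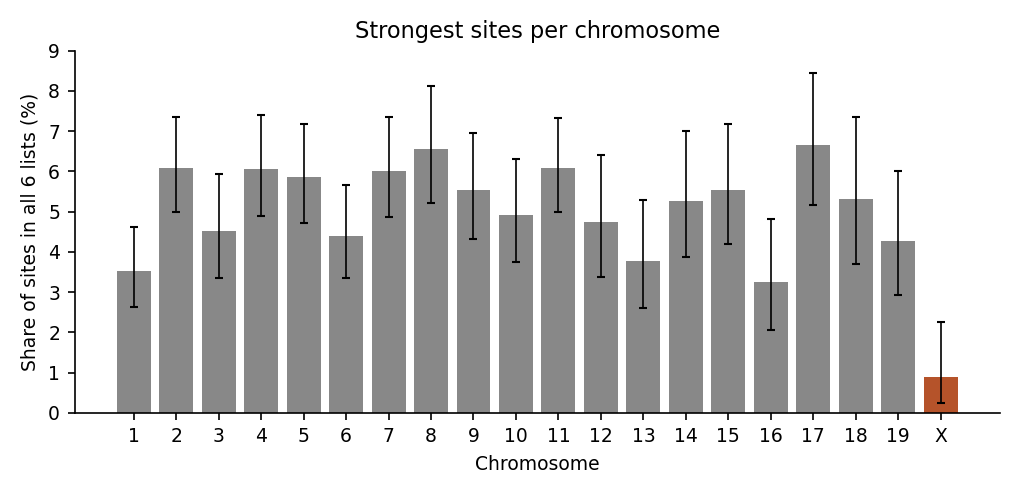
Share (%) of the sites called in all 6 lists on each chromosome that belong to the strongest sites, with exact 95% intervals; the X chromosome is in orange and Y, with 0 of 10, is left out. Autosomes lie between 3.24 and 6.67% and X at 0.89%.

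The median distance from a strongest site to the nearest other strongest site was 233922 bp. The nearest site called in all 6 lists was a median of 13835 bp away (18202 bp for the other sites in all 6). These sets differ in size, 1152 against 22131 sites, so that the first distance cannot be set against the second. Whether the strongest sites lie closer together or farther apart than randomly placed sites was not tested. Midpoints within 10 kb of each other were found for 24 neighbouring pairs. The closest pair lay 1133 bp apart at the start of Ext2, an enzyme of heparan sulfate synthesis (chromosome 2, 93822007 to 93822998 and 93823148 to 93824122), and the first of these holds the Ext2 core printed above. Others lay at Gramd1b, a cholesterol transporter (chromosome 9), Pink1, a kinase of mitochondrial quality control (chromosome 4), and near Cebpb. Of 684 genes that held the midpoint of a strongest site, 17 held 2 and 1, 2900026A02Rik on chromosome 5, held 3.

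Genes were looked up in 16 lists. These cover liver metabolism and nutrient signalling, CTCF and cohesin, Hox clusters, imprinted genes, the clock, ribosomal proteins and cell-type markers. A strongest site lay within 5 kb of an annotated end of 849 of 21896 protein-coding genes (3.88%), and of 20 of the 329 matched list genes (6.08%). Of 21 genes of CTCF and cohesin, 3 had one. They were Stag2, Pds5b, a cohesin release factor (chromosome 5, 150673436 to 150674710, mean rank 97.6), and Esco1, a cohesin acetyltransferase (chromosome 18, 10609221 to 10610864, 99.04). Of 21 clock genes, 3 had one. Tef, a PAR-bZIP activator, lay near a site outside the gene (chromosome 15, 81831050 to 81831943) that ranked 97.7, 94.6 and 96.5 in the starved and 94.6, 99.6 and 99.99 in the fed lists. Bhlhe40, a clock repressor, had one inside (chromosome 6, 108660629 to 108662315, mean rank 96.5). The site near Per1 overlapped its neighbour Vamp2, a vesicle fusion protein (chromosome 11, 69092118 to 69093306, 95.9).

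In insulin and nutrient signalling, 3 of 23 genes had one. Irs1 had its site over an end of the gene (chromosome 1, 82290978 to 82292430), at 98.0, 98.3 and 91.6 in the starved and 93.1, 96.4 and 98.9 in the fed lists. Tsc2, a brake on mTOR, had one inside (chromosome 17, 24628221 to 24629322, mean rank 96.2), and Stk11, the kinase upstream of AMPK, had one outside (chromosome 10, 80114358 to 80115220, 96.0). In fatty acid and triglyceride synthesis, 2 of 20 did. Srebf1, the transcription factor of lipogenesis, had its site inside the gene (chromosome 11, 60199354 to 60200412), with scores of 168, 128 and 106 in the starved and 238.5, 282 and 336 in the fed lists. The site of Dgat2 lay outside the gene (chromosome 7, 99150704 to 99152438) and scored 145, 191 and 135 in the starved and 265, 306 and 313 in the fed lists, with starved 2 at a rank of 99.996. Scores are the authors' own and are on a different level in each list, so that they show no change.

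In sterol synthesis and uptake, 2 of 20 genes did. Scap had its site over the start, with the core shown above (chromosome 9, 110332703 to 110334220). Its ranks were 99.6, 90.6 and 96.2 in the starved and 91.9, 98.7 and 97.5 in the fed lists. Fdps, which makes farnesyl pyrophosphate, had one outside that overlapped Rusc1 (chromosome 3, 89090098 to 89091389, mean rank 96.0). In gluconeogenesis and glycogen metabolism, 1 of 17 did, Crtc2, a coactivator of CREB, with a site that overlapped Dennd4b (chromosome 3, 90264665 to 90265612, 98.5). In fatty acid oxidation and ketogenesis, 0 of 20 did, although 7 of these genes had a site called in all 6 lists. Of 30 imprinted genes 0 did, with 12 near a site called in all 6 lists. Sites within 5 kb of Hoxa7 and Hoxa9 were 1 and the same (chromosome 6, 52221370 to 52222370, 98.1), the only one among 39 Hox genes. Of 49 ribosomal protein genes Rplp0 alone had one (chromosome 5, 115558902 to 115559796, 97.4).

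Of 19 hepatocyte markers, 1 had such a site, Cebpb, a transcription factor of liver metabolism (chromosome 2, 167684851 to 167685731), at 96.2, 99.2 and 94.7 in the starved and 99.5, 99.1 and 97.7 in the fed lists. The markers of Kupffer cells and macrophages, of cholangiocytes and of lymphocytes gave 0 of 10 each. Of 10 endothelial markers, 1 had a site, Clec4g, a lectin of liver sinusoids (chromosome 8, 3718265 to 3719190, 96.6), and of 10 markers of stellate cells and fibroblasts 1, Col1a1 (chromosome 11, 94936171 to 94937899, 98.2). These counts rest on few genes, and the lists were not tested against the share over all genes.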

How the data were processed

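Whole livers were snap-frozen and used for CTCF ChIP-seq with MicroPLEX v2 libraries, per the labels' protocols. Of 12 samples, the 3 starved and 3 fed ChIP libraries have a deposited peak list; the 6 input libraries were not analysed here. Groups and replicate numbers came from the sample titles. The deposited lists give a position and 1 score per peak, called per library and not pooled. The meaning of the score was not given in the sources used here. Per the submitters' processing notes, the tools named are MACS2, HOMER, BWA 0.7.5a, bedtools 2.17, FastQC and SAMtools, without their roles, and the build is mm10. The handling of duplicates, inputs and blacklists, like the depth, was not given in the sources used here. Deeper libraries usually give longer lists, higher scores and broader peaks.

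The members, gene lists and tests were chosen with earlier results of these data known. Peaks were merged at 1 bp of overlap and ranked by score within their list, ties averaged. A library's width at a site is the mean of its peaks there. Gene positions (49993 genes) and promoter windows came from RefSeq, GRCm38.p6, which gives no exons here. Coordinates count from 1. Values per library were compared between starved and fed by exact two-sided permutation over 20 labellings, at a threshold of 0.05 that this design cannot reach. Shares have exact binomial (Clopper-Pearson) 95% intervals. Named were the 15 sites of best mean rank, 3 on either side of the rank limit, list genes with a site within 5 kb and, for sequences, the best-ranked promoter sites with and without the core; list genes' and close pairs' core matches, and the pairs named, were picked after their values were seen. Alternatives covered rank limits of 80 and 95, a score limit, equal list length, trimming of peaks to 200 bp, merging across 500 bp, autosomes, windows, motif letters, summed widths, each library left out in turn and a replicate block. The rule, the permutation test and the motif search were tested on simulated data. The software was scipy 1.17.1, numpy 2.4.6 and pandas 2.3.3 on Python 3.11.15, with plots by matplotlib 3.10.9.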

Additional observations from a re-analysis of the deposited data

How the results depend on the processing

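The direction of the width difference was the same under all 14 alternatives run, at −448 to −316 bp when 1 library was left out. No test passed 0.05 under any alternative, which this design does not allow. Leaving out a library gave 1181 to 1586 strongest sites, most without starved 2, and 993 to 1282 sites with non-overlapping widths. It gave 32.7 to 36.8% at gene ends, 13.8 to 15.1% of windows with the core, −21.4 to −11.8 points for the share in the library left out and −0.60 to −0.38 for the log2 width ratio. Rank limits of 80 and 95, the score limit (30.4) and equal list length gave 3259, 351, 348 and 405 strongest sites, and 2664, 286, 304 and 359 with non-overlapping widths. In the same order, 29.8, 47.9, 46.8 and 42.5% lay at gene ends, and, at the last 3 of these settings, 10.5, 9.52 and 8.55% of windows had the core. The share with non-overlapping widths over all sites called in every list was not kept for these alternatives. In the main setting it was 87.6%, against 80.2% of the strongest sites, so that the counts show nothing particular to the strongest. The core share was 60.9% with 1 mismatch and 42.0% for the looser core. Gene ends gave 65.5% within 5 kb, 18.4% within 200 bp and 42.9% with any overlap. Reversed were the share in the library left out (11.2 points) and the log2 width ratio (0.25), both at equal list length, and peaks per site at a rank limit of 95 (−0.00095) and with peaks merged within 500 bp (−0.10, where 1 library can hold neighbouring peaks that another reports as 1). No cause of these changes was tested. Trimmed peaks have 1 width and gave no width result.

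The titles give replicate numbers only, and whether same-numbered libraries belong together is not known. Deviations in width correlated at −0.04 to 0.02 for same-numbered libraries and at −0.02 to 0.05 for the other pairs. Such values cannot decide whether the libraries were handled in pairs. With the replicate block the differences were −384.5 bp, −0.51, 0.02 peaks and −12.9 points, with exact sign-flip p = 0.25, 0.25 and 0.75 for the first 3, where 0.25 is the smallest that 3 pairs allow. The number of reads is unknown, so depth and the state of the liver cannot be told apart.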
